A study of Mus musculus with 6 samples.

Results

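The genes described here encode proteins that fold secretory and membrane proteins inside the endoplasmic reticulum (ER), together with the channel through which those proteins enter it. They are ER chaperones and their co-chaperones, protein disulfide isomerases and the oxidases that recharge them, prolyl isomerases, a collagen chaperone, and subunits of the translocon and of the signal sequence receptor. The 40 genes were chosen by symbol from what they encode, with earlier results of these data known. All 40 were found among the 20409 gene symbols of the RNA-Seq table. Libraries were made from total RNA of LECs, ECs selected with CD31 from mouse lung, immortalized with the middle T antigen and grown without treatment in EGM-2 medium with serum. The table holds 6 libraries, 3 from control LECs (Atgl fl/fl by the labels, though the methods call the controls wild type) and 3 from *Atgl* ECKO LECs, in which a *Cdh5*-Cre transgene, active in ECs, removes the floxed part of *Pnpla2*, the gene of the triglyceride lipase ATGL. The study asked whether ER stress genes differ between these genotypes. From these libraries it reported *Ero1l* as upregulated and *Hspa5*, *Xbp1* and *Hsp90b1* as not different, by a test other than the one used here.

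A protein that enters the ER passes through the SEC61 channel and meets BiP, an Hsp70 chaperone that binds and releases it with help from J-domain proteins and nucleotide exchange factors. Glycoproteins cycle through the lectin chaperones calnexin and calreticulin, disulfide isomerases form and rearrange their disulfide bonds, and ERO1 oxidases pass the electrons on to oxygen. When unfolded proteins build up, the sensors ATF6, IRE1 and PERK start the unfolded protein response, and many of these genes are known targets of its ATF6 and XBP1 branches. ECs secrete large amounts of protein, among them von Willebrand factor and the collagens of the basement membrane.

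Most of the 40 genes had lower mRNA levels in *Atgl* ECKO LECs. Of the 40, 27 fell, 6 rose and 7 did not pass the test (limma on log2(CPM + 1), adjusted p under 0.05), where CPM stands for counts scaled to the size of the library. Over all 12837 tested genes, 36.2% were lower and 34.2% were higher in the same fit. The median log2 fold change, *Atgl* ECKO minus control, was -0.24 for the 40 genes and -0.01 for all tested genes. The changes were modest in size. They ran from -0.61 for *Dnajc1* to 0.59 for *Ero1l*, with 4 of 40 beyond 0.5 in either direction and 0 beyond 1. In 35 of the 40 genes the libraries of the genotypes did not overlap, while 73.1% of all tested genes had no overlap. Summed over the 40 genes, the level was 12396 ± 101 CPM in control libraries and 10255 ± 224 CPM in *Atgl* ECKO libraries (SD, n = 3 each), or 82.7% of control. A sum weighs each gene by its reads, so *Hsp90b1*, *Hspa5*, *Serpinh1*, *Calr* and *Pdia3* carry much of it. In bulk RNA, fewer cells of a type and less RNA per cell cannot be told apart.

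**Figure D1:**
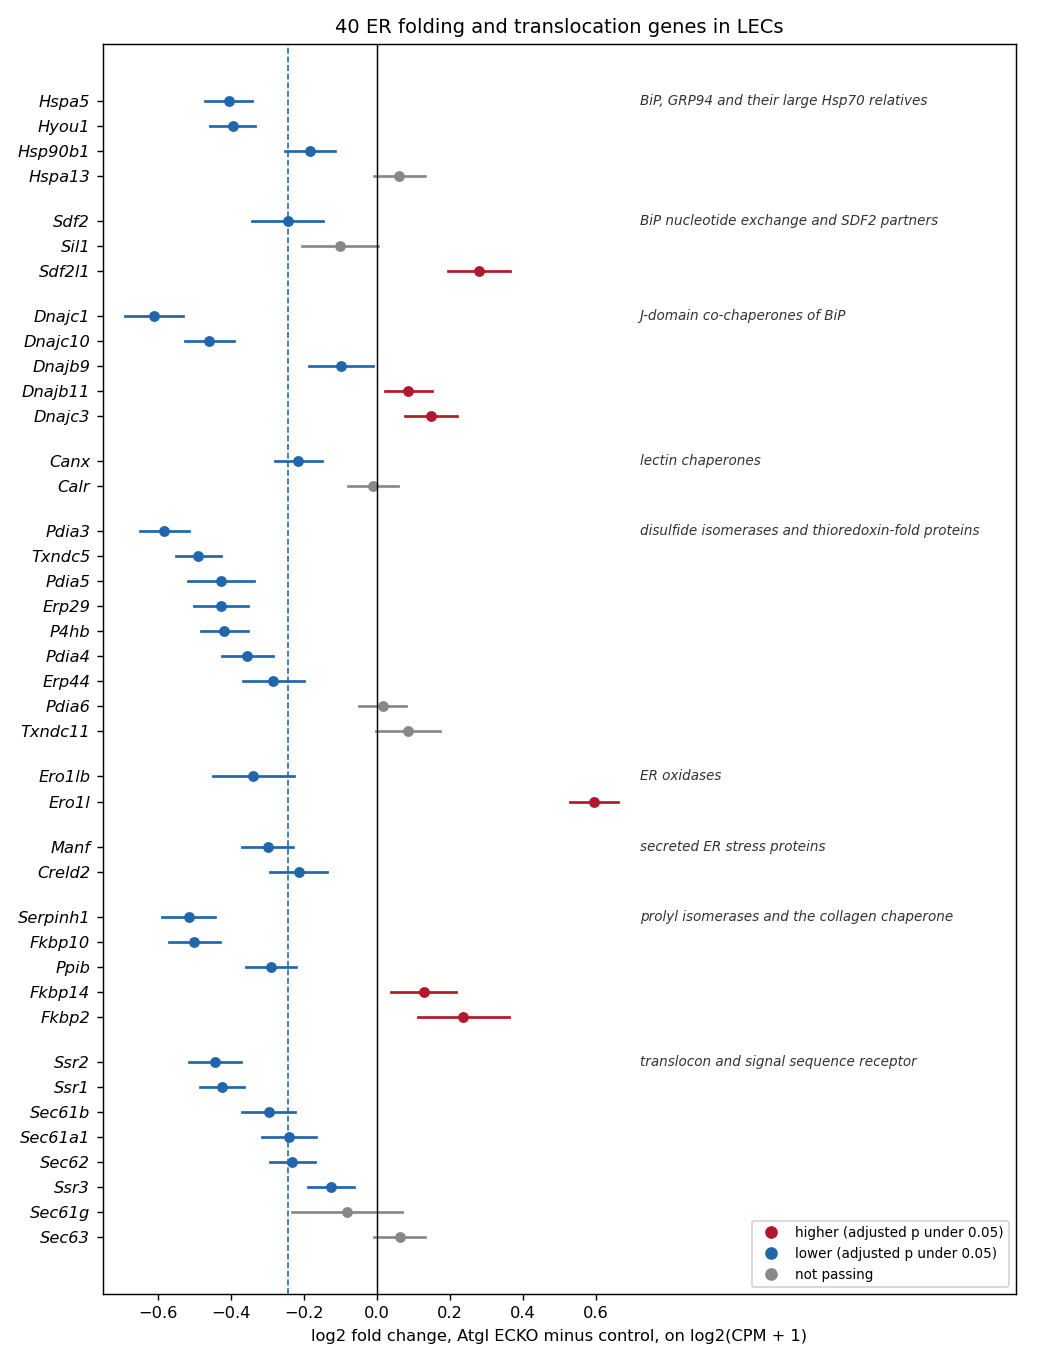
Log2 fold change of each of the 40 genes (x axis, *Atgl* ECKO minus control on log2(CPM + 1)), in groups by role, where points are estimates from limma and bars 95% confidence intervals. Blue points are lower, red points higher and gray points did not pass an adjusted p under 0.05, and the dashed line marks the median of the 40 genes, -0.24. *Ero1l* lies alone at the right, at 0.59.

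The libraries were of like depth, with 55.6 to 69.0 reads behind each CPM. Across genes, the correlation was at least 0.998 within a genotype and 0.963 to 0.964 between genotypes. *Pnpla2* was at 27.6, 26.3 and 30.1 CPM in the control libraries and at 9.97, 9.11 and 9.13 CPM in the *Atgl* ECKO libraries (log2 fold change -1.48, with a two-sided p = 0.1 from an exact permutation test, the lowest p possible for 3 against 3). All 12 endothelial markers were tested, and their summed level ranged over 5609 to 5845 CPM in the control libraries and 5677 to 6056 CPM in the *Atgl* ECKO libraries. This sum, which *Cdh5* and *Pecam1* dominate, covers 4 markers that rose, 4 that fell and 4 that did not pass. *Cldn5* was at 381% of control, while *Vwf*, the gene of von Willebrand factor, was at 38.9%, *Tek* at 69.2% and *Tie1* at 79.6% of control. Markers of other cells also moved with genotype. The summed level of the 5 leukocyte markers found, of 7 listed, was 20.2 to 23.0 CPM in the control and 63.7 to 75.0 CPM in the *Atgl* ECKO libraries, nearly all from *Cd68*, while *Cd79a* and *Itgam* did not exceed 0.245 CPM. For 6 of 8 epithelial markers it was 18.03 to 19.03 and 42.2 to 44.6 CPM, mostly *Krt18*, with *Epcam* and *Cdh1* at or near 0. For 10 of 12 fibroblast, smooth muscle and pericyte markers it was 311 to 354 and 364 to 435 CPM, mostly from *Tagln*, at 159 and 271 CPM on average, and *Acta2*, at 167 and 116 CPM, which moved in opposite directions (log2 fold changes 0.77 and -0.53). For 3 of 5 markers of plasma cells, which are rich in ER chaperones, it was 54.2 to 58.5 and 31.3 to 33.7 CPM, nearly all from *Sdc1*, with *Jchain* at or near 0. The remaining plasma cell marker, *Prdm1*, rose instead, from 0.624 to 3.23 CPM on average (log2 fold change 1.38). The 1 mesothelial marker found, of 4 listed, did not exceed 0.166 CPM. The part of these markers in the results below was not tested. Genes of the Y chromosome also differed, with a summed level for 4 of them of 172 to 179 CPM in the control and 1.9 to 2.29 CPM in the *Atgl* ECKO libraries, so the deletion and other differences between the cells of the genotypes cannot be told apart. The methods describe the mice of every experiment as male. Whether replicate libraries stem from different cultures or animals is not in the labels, and a p-value then reflects no more than the spread among these 6 libraries, which may be technical.

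Because many of these genes are targets of the unfolded protein response, their promoters were searched for its elements in RefSeq windows of build GRCm38.p6, 300 bases that lie mostly upstream of each gene start. The ER stress response element (ERSE), which NF-Y binds at its first end and ATF6 at its last, reads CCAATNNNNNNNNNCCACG. On either strand it was found in 39 of 32851 promoters (0.119%) and in 8 of the 32 of the 40 genes that have a promoter entry. Counted by gene, it was in 15 of the 9125 tested genes with a promoter entry (0.164%). These 8 windows are shown because they hold the element most closely tied to chaperone induction, next to the direction in which each gene moved. Capitals mark the element, which reads CGTGG to ATTGG where it lies on the opposite strand, and *Hsp90b1* has 2 copies.

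*Hspa5*, lower, chr2:34772013-34772055, + strand: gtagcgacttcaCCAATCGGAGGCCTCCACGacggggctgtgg

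*Hsp90b1*, lower, chr10:86705626-86705668, - strand: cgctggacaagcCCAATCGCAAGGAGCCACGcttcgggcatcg

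*Hsp90b1*, lower, chr10:86705521-86705563, - strand: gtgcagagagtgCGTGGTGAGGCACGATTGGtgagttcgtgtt

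*Canx*, lower, chr11:50325788-50325830, - strand: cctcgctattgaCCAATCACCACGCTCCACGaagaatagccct

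*Creld2*, lower, chr15:88819508-88819550, + strand: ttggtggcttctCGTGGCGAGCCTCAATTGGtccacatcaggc

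*Ero1lb*, lower, chr13:12565670-12565712, + strand: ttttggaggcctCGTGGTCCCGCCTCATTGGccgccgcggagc

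*Calr*, not passing, chr8:84847063-84847105, - strand: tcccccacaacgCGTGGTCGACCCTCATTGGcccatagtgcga

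*Pdia6*, not passing, chr12:17266479-17266521, + strand: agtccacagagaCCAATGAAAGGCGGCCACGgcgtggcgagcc

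*Dnajc3*, higher, chr14:118937815-118937857, + strand: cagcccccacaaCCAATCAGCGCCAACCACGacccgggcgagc

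In *Hspa5* the element lies 65 to 47 bases before the start, and in the other 7 genes between 212 and 80 bases before it. Of the 8 genes with an ERSE, 5 fell, 1 rose and 2 did not pass, and their median log2 fold change was -0.20. The 24 genes whose promoter entries lack it had 16 lower, 5 higher and 3 not passing, and their median was -0.26. The other 8 genes have no entry, and 6 of them fell. For comparison, 36.2% of all tested genes were lower and 34.2% higher. A match describes letters in a window and not bound sites. The shorter ERSE-II, ATTGGNCCACG, was found in 12 promoters (0.0365%), among them that of *Dnajb11*. The UPRE, an XBP1 element, was searched in the forms TGACGTGG and TGACGTGA, found in 0.676% and 0.441% of promoters, with *Txndc5* and *Txndc11* among the first and *Hspa5* among the second. The C/EBP-ATF element TGATGNAA, bound by ATF4 and CHOP, was in 3.97% of promoters and, of these genes, in that of *Txndc5*. Of the tested genes with a promoter entry, ERSE-II was in 0.0986%, the UPRE forms in 1.02% and 0.833%, and the C/EBP-ATF element in 2.61%. CCACG alone, which lies inside ERSE, ERSE-II and, read from the opposite strand, the first form of the UPRE, was in 26 of the 32 genes, in 53.1% of the tested genes with a promoter entry and in 32.8% of all promoters.

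BiP and its large relatives fell in 3 of 4 cases (75%), where 36.2% of all tested genes were lower. *Hspa5*, which encodes BiP, was at 1277, 1279 and 1272 CPM in the control libraries and at 963, 979 and 947 CPM in the *Atgl* ECKO libraries. The libraries of the genotypes were far apart, with 75.5% of the control level left (log2 fold change -0.41, standard error 0.03, adjusted p = 8.24e-09 from limma). *Hsp90b1*, which encodes the Hsp90 chaperone GRP94, was at 1451, 1433 and 1409 CPM in control and at 1261, 1286 and 1232 CPM in *Atgl* ECKO. It fell less, to 88.0% of control (-0.18, standard error 0.03, adjusted p = 9.99e-05), again with no overlap. *Hyou1*, which encodes GRP170, a chaperone that also frees BiP of its nucleotide, fell from 279 ± 3.62 to 212 ± 4.50 CPM (SD, n = 3 libraries per genotype). *Hspa13*, a truncated Hsp70 relative, had 75.6 ± 0.557 and 79.1 ± 2.46 CPM and did not pass (log2 fold change 0.06, adjusted p = 0.0973 from limma), though it passed as higher without *Atgl* ECKO replicate 3 (adjusted p = 0.0303). It also passed as higher with rescaling by median ratios (adjusted p = 0.0233 from limma) or quantile normalization (adjusted p = 0.0125).

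The exchange factors and SDF2 proteins did not share a direction. *Sil1*, another nucleotide exchange factor of BiP, had 14.9 ± 0.357 and 13.9 ± 0.619 CPM (SD, n = 3 each, control first) and did not pass (-0.10, adjusted p = 0.0794 from limma), though it passed as lower without *Atgl* ECKO replicate 1 (adjusted p = 0.0475). With quantile normalization *Sil1* also passed as lower (adjusted p = 0.0211 from limma). *Sdf2* and *Sdf2l1* encode related partners of the J-domain protein ERdj3. *Sdf2l1* was at 26.6, 26.2 and 27.9 CPM in control and at 33.4, 33.5 and 31.8 CPM in *Atgl* ECKO, a rise to 122% of control with no overlap (0.28, standard error 0.04, adjusted p = 1.52e-05). *Sdf2* moved the other way, to 83.7% of control (-0.24, adjusted p = 0.000207).

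All 5 J-domain co-chaperones passed the test, 3 downward and 2 upward, where 36.2% of all tested genes were lower and 34.2% higher. *Dnajc1*, which encodes a membrane J-domain protein that meets ribosomes at the ER, had the lowest log2 fold change of the 40 genes. It was at 46.6, 46.4 and 45.7 CPM in control and at 30.8, 30.4 and 28.6 CPM in *Atgl* ECKO (-0.61, standard error 0.04, adjusted p = 9.69e-10 from limma), which left 64.8% of control and a wide gap between the groups. *Dnajc10* encodes ERdj5, a J-domain protein with thioredoxin domains that reduces disulfide bonds of proteins bound for degradation. Its libraries were at 297, 283 and 290 CPM in control and at 212, 216 and 204 CPM in *Atgl* ECKO (-0.46, standard error 0.03). *Dnajb9*, which encodes ERdj4, a repressor of IRE1, was lower by a small margin (43.6 ± 1.748 against 40.6 ± 1.62 CPM, SD, n = 3 each, adjusted p = 0.0422). This call was lost without control replicate 1 (adjusted p = 0.192), control replicate 3 (0.0502), *Atgl* ECKO replicate 2 (0.0692) or *Atgl* ECKO replicate 3 (0.180). *Dnajc3*, which encodes the co-chaperone P58, was at 132, 124 and 128 CPM in control and at 142, 147 and 137 CPM in *Atgl* ECKO (0.15, standard error 0.03, adjusted p = 0.00105). *Dnajb11*, which encodes ERdj3, a co-chaperone that binds substrates and hands them to BiP, was at 104, 100.4 and 103 CPM in control and at 110, 110 and 106 CPM in *Atgl* ECKO. The rise was the smallest of the 6 (0.09, standard error 0.03, adjusted p = 0.0177) and its call was lost without control replicate 2 (adjusted p = 0.0665), *Atgl* ECKO replicate 1 (0.0520) or *Atgl* ECKO replicate 2 (0.0794).

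Of the lectin chaperones, 1 fell and 1 did not pass, and the difference between them was not tested. *Canx*, which encodes the membrane-bound calnexin, was at 934, 932 and 919 CPM in control and at 798, 816 and 785 CPM in *Atgl* ECKO. It fell to 86.1% of control with no overlap (-0.21, standard error 0.03, adjusted p = 1.03e-05 from limma). *Calr*, which encodes its soluble relative calreticulin, was at 1114 ± 6.18 and 1107 ± 30.6 CPM (SD, n = 3 each), and the libraries overlapped. The 95% confidence interval of its log2 fold change, -0.01, ran from -0.08 to 0.06. It passed as lower with quantile normalization (-0.07, adjusted p = 0.0255) and with chromosome medians removed, where both lectin chaperone genes were at -0.12.

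**Figure D2:**
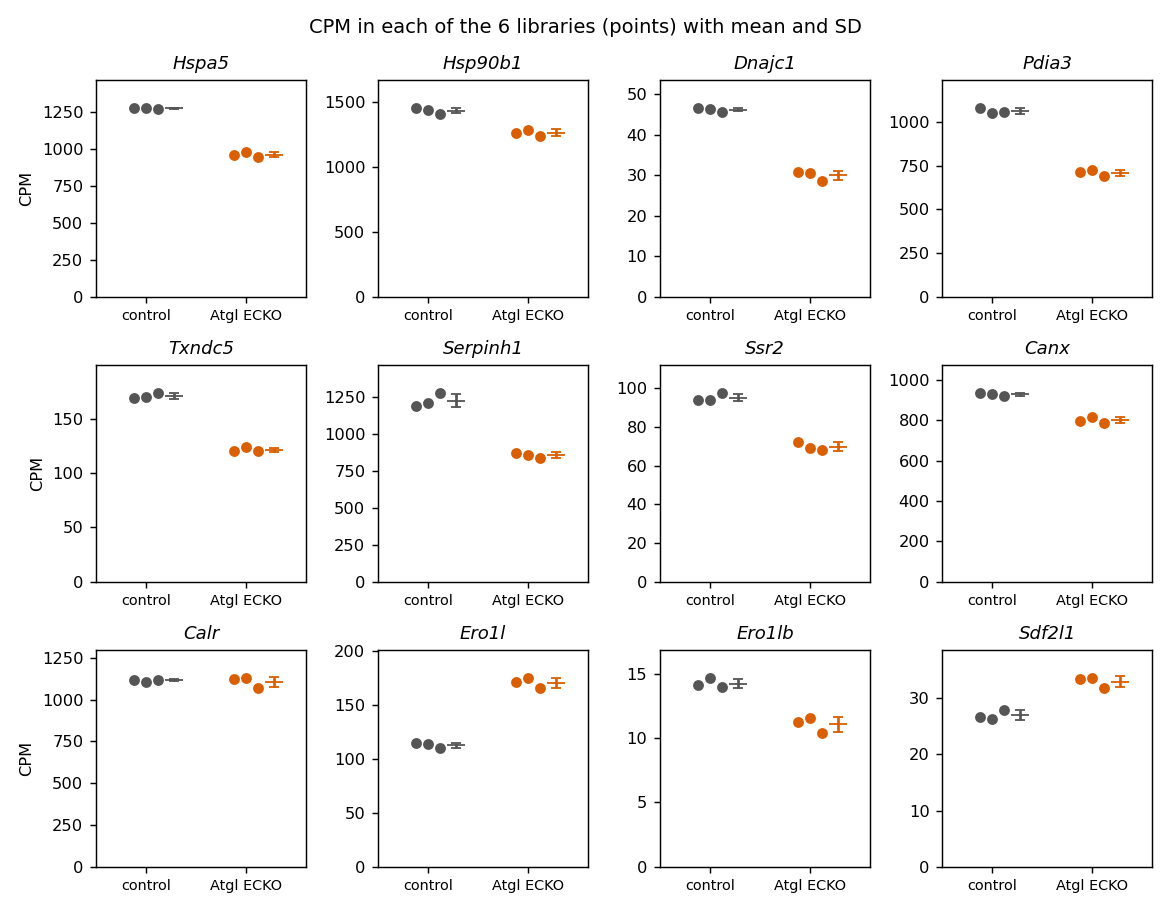
CPM (y axis, from 0) of 12 of the genes in each control library (gray) and *Atgl* ECKO library (orange), with the mean and SD of the 3 libraries of each genotype beside the points. The 3 orange points lie below the gray ones in 9 panels, from *Hspa5* to *Canx* and in *Ero1lb*, lie above them for *Ero1l* and *Sdf2l1*, and overlap them for *Calr*.

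Disulfide isomerases and their thioredoxin-fold relatives fell in 7 of 9 cases (77.8%) and rose in 0, with a median log2 fold change of -0.42. In the same fit 36.2% of all tested genes were lower and 34.2% higher. *Pdia3*, which encodes ERp57, the isomerase that works with calnexin and calreticulin on glycoproteins, was at 1083, 1051 and 1058 CPM in control and at 718, 725 and 690 CPM in *Atgl* ECKO. It fell to 66.8% of control (-0.58, standard error 0.03, adjusted p = 1.82e-10 from limma), and its lowest control library was well above its highest *Atgl* ECKO library. *Txndc5*, which encodes the isomerase ERp46, was at 169, 170 and 174 CPM in control and at 121, 124 and 120.0 CPM in *Atgl* ECKO (-0.49, standard error 0.03). *Pdia5* was at 30.6, 33.2 and 33.4 CPM in control and at 24, 23.7 and 23.7 CPM in *Atgl* ECKO (-0.43, standard error 0.04). Neither gene had an overlap between the genotypes.

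*P4hb* encodes PDI itself, which is also the beta subunit of collagen prolyl 4-hydroxylase, and it fell from 931 ± 15.97 to 697 ± 14.1 CPM (SD, n = 3 each, log2 fold change -0.42). The isomerase gene *Pdia4* fell by 0.35 on the log2 scale, *Erp29*, whose product has the fold without the active cysteine pair, by 0.43, and *Erp44*, whose product returns ERO1 and unassembled proteins to the ER, by 0.28. Each of these 4 genes had no overlap between the genotypes. *Pdia6*, which encodes the isomerase P5, did not pass, at 374 ± 7.90 and 378 ± 9.36 CPM (SD, n = 3 each), and its log2 fold change of 0.02 had an interval from -0.05 to 0.08. With chromosome medians removed it was at -0.35 and all 9 genes of the group were lower. *Txndc11* had 41.6 ± 1.35 and 44.2 ± 2.26 CPM and did not pass (0.09, adjusted p = 0.0787 from limma). It passed as higher without control replicate 3 (adjusted p = 0.0480) or *Atgl* ECKO replicate 3 (adjusted p = 0.0439).

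The ER oxidases moved in opposite directions. *Ero1l*, which encodes the widely expressed oxidase of PDI, ERO1-alpha, was at 115, 114 and 110.0 CPM in control and at 172, 175 and 166 CPM in *Atgl* ECKO. It rose to 151% of control (0.59, standard error 0.03, adjusted p = 1.27e-10 from limma), the only rise among the 40 genes beyond 0.5. *Ero1lb*, which encodes the second oxidase, ERO1-beta, fell from 14.2 ± 0.356 to 11.1 ± 0.595 CPM (SD, n = 3 each, log2 fold change -0.34, adjusted p = 2.84e-05). The libraries of the genotypes were apart for both genes.

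*Manf* and *Creld2* encode small proteins that cells release under ER stress, and both fell. *Manf* was at 117, 114 and 120 CPM in control and at 96.4, 96.5 and 91.6 CPM in *Atgl* ECKO, with no overlap (-0.30, standard error 0.03, adjusted p = 9.09e-07 from limma). *Creld2* fell to 85.9% of control (-0.21, adjusted p = 8.89e-05).

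Prolyl isomerases and the collagen chaperone moved both ways, with 3 of 5 genes lower (60%) and 2 higher (40%). The shares of all tested genes were 36.2% and 34.2%. *Serpinh1*, which encodes HSP47, a chaperone for procollagen, was at 1195, 1209 and 1279 CPM in control and at 876, 862 and 837 CPM in *Atgl* ECKO. It fell to 69.9% of control (-0.52, standard error 0.03, adjusted p = 2.34e-09 from limma). *Fkbp10*, which encodes the prolyl isomerase FKBP65, another collagen chaperone, was at 152.6, 146 and 157 CPM in control and at 109, 107 and 105 CPM in *Atgl* ECKO (-0.50, standard error 0.03, adjusted p = 1.93e-09). *Ppib*, which encodes cyclophilin B, a partner of the collagen 3-hydroxylation complex, fell by 0.29 on the log2 scale.

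*Fkbp2* and *Fkbp14* rose. *Fkbp2*, an ER prolyl isomerase gene at low level, was at 8.11, 8.42 and 9.12 CPM in control and at 10.53, 10.56 and 9.66 CPM in *Atgl* ECKO (0.24, standard error 0.06, adjusted p = 0.00197 from limma). *Fkbp14*, whose product FKBP22 also binds collagen, was at 36.6, 37.2 and 37.5 CPM in control and at 42.5, 41.4 and 38.1 CPM in *Atgl* ECKO (0.13, standard error 0.04, adjusted p = 0.0119). Its *Atgl* ECKO replicate 3 came close to the control libraries, and the call was lost without *Atgl* ECKO replicate 1 (adjusted p = 0.0624) or replicate 2 (adjusted p = 0.0542).

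The translocon and the signal sequence receptor fell in 6 of 8 cases (75%) and rose in 0, with a median log2 fold change of -0.24. Shares over all tested genes were 36.2% lower and 34.2% higher. *Ssr2*, which encodes the beta subunit of the signal sequence receptor, a complex that helps proteins through the SEC61 channel, was at 93.9, 94.1 and 97.4 CPM in control and at 72.4, 69.1 and 67.8 CPM in *Atgl* ECKO (-0.44, standard error 0.03, adjusted p = 1.05e-08 from limma). *Ssr1*, its alpha subunit, fell by a similar 0.42 on the log2 scale, and *Ssr3*, the gamma subunit, by 0.12. *Sec61a1*, which encodes the pore of the channel, fell by 0.24, the small subunit gene *Sec61b* by 0.30 and *Sec62*, which takes part in posttranslational entry, by 0.23. *Sec63*, whose product brings BiP to the channel, had 140 ± 4.94 and 146 ± 3.36 CPM and did not pass (0.06, adjusted p = 0.102), though it passed as higher without control replicate 1 (adjusted p = 0.0431). *Sec61g*, the other small subunit gene, had the fewest reads of the 40, at 3.04 ± 0.209 and 2.82 ± 0.0773 CPM (SD, n = 3 each), and its interval was the widest (-0.08, 95% confidence interval -0.23 to 0.07).

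**Figure D3:**
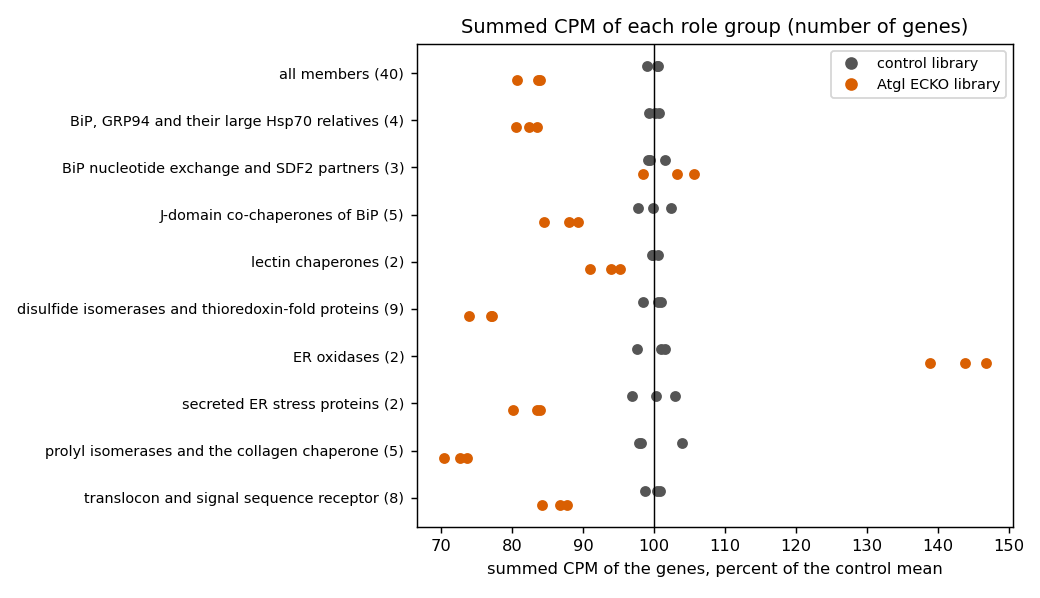
Summed CPM of the genes of each role group in each library, as a percent of the control mean (x axis), with control libraries in gray and *Atgl* ECKO libraries in orange. The sums of *Atgl* ECKO libraries lie below those of control libraries in 7 of the 9 role groups, overlap them for the exchange factors and SDF2 partners, and lie above them for the oxidases.

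By summed level, prolyl isomerases with the collagen chaperone fell to 72.2% of control and disulfide isomerases to 76.0%. BiP with its relatives came to 82.1%, the secreted proteins to 82.5%, the translocon to 86.3%, J-domain proteins to 87.2% and the lectin chaperones to 93.3% of control. The exchange factors and SDF2 partners were at 102% and the oxidases, through *Ero1l*, at 143% of control.

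The 40 genes varied little between libraries of 1 genotype. Their median coefficient of variation was 2.31% in control and 2.61% in *Atgl* ECKO libraries, against 3.70% and 3.58% over all tested genes. *Atgl* ECKO replicate 3 held the lowest of the 3 *Atgl* ECKO values in 39 of the 40 genes, with *Sec61b* as the exception, and in 56.6% of all tested genes. Among the control libraries, the lowest value was in replicate 2 for 57.5% of the 40 genes and 46.6% of all tested genes. The summed level of *Atgl* ECKO replicate 3 over the 40 genes was 9997 CPM, against 10366 and 10400 CPM in the other *Atgl* ECKO libraries, a gap smaller than that to the lowest control library at 12279 CPM. Without this library 26 genes were lower and 8 higher, while 33.0% of all tested genes were lower and 34.0% higher.

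Chromosome position moved with these results. The median log2 fold change of all genes was 0.36 on chromosome 12, 0.44 on chromosome 14, 0.26 on chromosome 16 and 0.40 on chromosome 19, while on chromosome 2 it was -0.23. Of the 10 genes on chromosomes 12, 14, 16 and 19, 5 rose, 2 fell and 3 did not pass, and among all tested genes there 78.7% were higher and 8.38% lower. Of the 30 genes elsewhere, 1 rose (*Fkbp14*), 25 fell and 4 did not pass, while 27.6% of all tested genes elsewhere were higher and 41.1% lower. Chromosomes 12, 14, 16 and 19 were set apart after their medians were seen, at a median above 0.2. Chromosome 2, at -0.23, stayed with the others, and *Dnajc1*, *Pdia3*, *Dnajc10* and *Hspa5* lie there.

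With the median of each chromosome removed, 34 of the 40 genes were lower, 1 was higher and 5 did not pass, and in that setting 31.7% of all tested genes were lower and 32.2% higher. *Ero1l* was the gene that remained higher, at 0.15 (adjusted p = 0.000655 from limma) where it had been at 0.59. *Dnajc3*, *Dnajb11* and *Fkbp2* turned lower, at -0.30, -0.18 and -0.17, and *Sdf2l1* (0.02) and *Fkbp14* (0.09) no longer passed. *Calr* (-0.12), *Pdia6* (-0.35), *Hspa13* (-0.20), *Txndc11* (-0.18) and *Sec63* (-0.13), which had not passed, were lower. *Pdia5*, on chromosome 16, had the lowest value, -0.69, and *Hspa5* and *Hsp90b1*, on chromosomes 2 and 10, had values of -0.18 and -0.38, in the reverse of their order before. On chromosome 2, *Dnajc1*, *Pdia3* and *Dnajc10* were at -0.38, -0.35 and -0.23, where they had been at -0.61, -0.58 and -0.46. What part of each change goes with its chromosome was not tested beyond this setting.

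**Figure D4:**
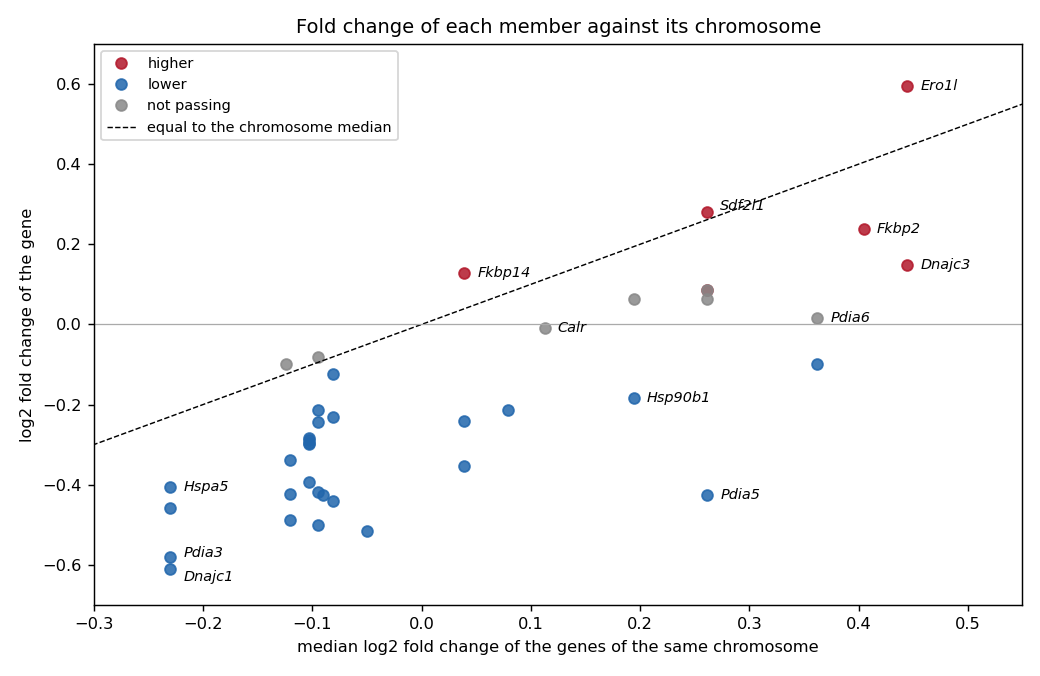
Log2 fold change of each of the 40 genes (y axis) against the median log2 fold change of all genes on its chromosome (x axis), both *Atgl* ECKO minus control. The dashed line marks equality, and most points lie below it, including *Fkbp2*, *Dnajc3*, *Pdia6* and *Hsp90b1* on chromosomes with positive medians, while *Ero1l* lies above it.

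Related genes outside the 40 were taken from 8 lists of the same secretory pathway and of its cytosolic counterparts, 135 tested genes in all. Of these, 72 were lower (53.3%), 32 higher (23.7%) and 31 did not pass. Among all tested genes, 36.2% were lower and 34.2% higher. Of the genes named below, *Arfgap1*, *Rcn1*, *Rpn2*, *Sec61a2*, *Tmx4* and *Creb3l1* lie on chromosome 2, where the median was -0.23. Retrieval from the Golgi had the largest share of lower genes among the 8 lists. Of 14 genes for KDEL receptors, which return escaped chaperones, and for the COPI coat that carries them, 13 fell and 0 rose, with a median log2 fold change of -0.23. *Kdelr3* fell from 38.1 ± 1.00 to 12.4 ± 0.292 CPM (SD, n = 3 each, log2 fold change -1.55), *Kdelr2* by 0.43 and the COPI genes *Copb2* and *Arfgap1* by 0.39 and 0.49 on the log2 scale. With chromosome medians removed the count was the same, 13 lower and 0 higher.

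Of 14 genes for enzymes that modify collagen and for partners in its processing and export, 10 fell (71.4%) and 1 rose (7.1%). Their median was -0.45, the lowest of the 8 lists, where 36.2% of all tested genes were lower and 34.2% higher. The gene that rose, *Ctage5* (0.50), and *Mia3* (-0.44), which fell, encode export factors and not enzymes. Both are named outside the rule for named genes. *Plod1*, a lysyl hydroxylase gene, fell from 111 ± 4.34 to 55.01 ± 3.05 CPM (SD, n = 3 each, to 49.5% of control), the prolyl 3-hydroxylase genes *P3h1* and *P3h2* by 0.87 and 0.79, and *P4ha2*, which encodes an alpha subunit that pairs with PDI, by 0.54 on the log2 scale. Of 17 other lectins, calcium binders, glucosidases and prolyl isomerases, 10 were lower and 3 higher, with a median of -0.31. The reticulocalbin genes, which encode calcium binders of the secretory pathway, were among them, with log2 fold changes of -1.98 for *Rcn3*, -0.92 for *Rcn1* and -0.64 for *Rcn2*, and *Ppic*, which encodes cyclophilin C, was at -0.52.

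Of 11 subunits of the oligosaccharyltransferase, which attaches N-glycans at the translocon, 8 fell (72.7%) and 2 rose (18.2%), with a median of -0.24. *Rpn2* fell by 0.58 and *Ostc* by 0.43, whereas *Dad1*, on chromosome 14, and *Tmem258*, on chromosome 19, rose by 0.53 and 0.46 on the log2 scale. With chromosome medians removed 8 subunits were lower and 0 higher, so both rises lost their call. Of 18 genes for protein targeting, translocon partners and signal peptidase, 10 fell (55.6%) and 3 rose (16.7%), with a median of -0.11. *Sec61a2*, which encodes an alternative pore subunit, fell by 0.69, the signal peptidase gene *Sec11a* by 0.34 and the translocon partner gene *Tram1* by 0.23, and another signal peptidase gene, *Spcs1*, rose by 0.37. *Ssr4*, the delta subunit of the signal sequence receptor, named outside the rule for named genes to complete that complex, fell by 0.15. Of 13 other ER thiol and redox genes, 7 fell (53.8%) and 4 rose (30.8%, against 34.2% of all tested genes), with a median of -0.13. *Prdx4*, whose product uses peroxide to oxidize PDI, fell from 49.9 ± 0.957 to 27.8 ± 1.28 CPM (SD, n = 3 each, -0.82), and *Gpx7*, a second peroxide-using oxidase gene, rose by 0.50. The membrane thioredoxin-fold genes *Txndc15* and *Tmx4* fell by 0.72 and 0.40 on the log2 scale.

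**Figure D5:**
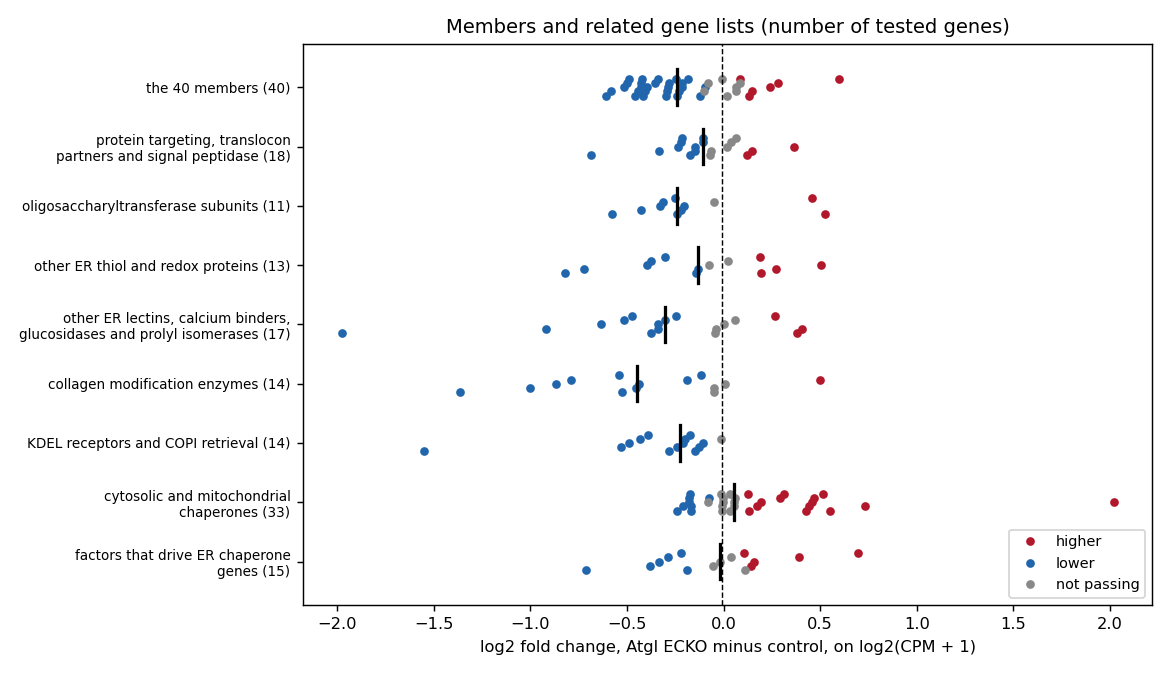
Log2 fold change (x axis, *Atgl* ECKO minus control on log2(CPM + 1)) of every tested gene of the 40 and of the 8 related lists, with red for higher, blue for lower and gray for not passing, black bars at the median of each list and a dashed line at the median of all tested genes. The point beyond 2 is *Hspb8*, at 0.0361 to 0.106 CPM in the control and 2.91 to 3.68 CPM in the *Atgl* ECKO libraries.

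Chaperones outside the ER moved both ways. Of 33 cytosolic and mitochondrial chaperone genes, 14 rose (42.4%), 8 fell (24.2%) and 11 did not pass, with a median log2 fold change of 0.05. Among all tested genes, 34.2% were higher and 36.2% lower. *Hsp90aa1*, which encodes an inducible cytosolic Hsp90, rose from 529 ± 3.60 to 756 ± 13.3 CPM (SD, n = 3 each, 0.52), and *Stip1*, which encodes a co-chaperone between Hsp70 and Hsp90, by 0.55 on the log2 scale. They lie on chromosomes 12 and 19. *Hspa1a* (0.73) and *Hspa1b* (0.47) were also higher, but these Hsp70 genes are nearly identical, so their reads may be split between them. The difference in direction between this list and the 40 genes was not tested.

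Regulators of ER chaperone genes moved both ways, with 5 of 15 higher (33.3%), 6 lower (40%) and a median of -0.02, close to the 34.2% and 36.2% of all tested genes. *Creb3l1*, which encodes a membrane-bound transcription factor related to ATF6 and known for collagen genes, fell from 14.3 ± 0.788 to 8.30 ± 0.342 CPM (SD, n = 3 each, -0.71). *Ddit3*, which encodes CHOP, rose by 0.69 and *Atf4* by 0.39, and *Nfya*, a subunit of the factor that binds the CCAAT end of the ERSE, fell by 0.38 on the log2 scale. The other subunit genes of that factor, also named outside the rule, did not fall. *Nfyb* rose by 0.11, and *Nfyc*, at 0.11, did not pass (adjusted p = 0.0646 from limma). Of the sensors and their direct factors, named outside the rule for named genes because they define the branches of the response, *Atf6* rose by 0.16, its relative *Atf6b* fell by 0.22, *Ern1*, which encodes IRE1, fell by 0.33, and *Eif2ak3*, which encodes PERK, was at -0.02 (adjusted p = 0.657). *Xbp1*, whose mRNA IRE1 splices, fell by 0.29 on the log2 scale, and the CPM of a gene does not tell its spliced form from the unspliced one.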

How the data were processed

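Total RNA was depleted of rRNA before sequencing. The authors used STAR for alignment and Partek E/M for quantification, with RefSeq genes of hg19, a human build although the symbols are those of mouse, and deposited gene values in CPM. Versions of these tools were not given in the sources used here. A small RNA kit is named in the protocol for these libraries of total RNA. Of 20430 lines, 21 with a date for a symbol and 1 stray cell were left out. Values include an offset of 0.0001 CPM, and columns sum to 818258 to 823485 CPM. Between 43.4% and 59.2% of values per library came out as whole reads (within 0.02), so reads were not recovered and no count test was run.

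Genes that averaged 1 CPM or more over the libraries (12837) were tested with limma 3.58.1 in R 4.3.3 (mean-variance trend) on log2(CPM + 1), which understates changes of low genes. Genotype was the only term, the test was two-sided, and Benjamini-Hochberg adjustment ran over all tested genes. The fit, with 4 residual and 10.9 prior degrees of freedom, was tested on simulated data. Intervals are at the 95% level. Chromosomes came from the RefSeq gene table of GRCm38.p6 for 97.1% of tested genes, and chromosome medians from genes that averaged 5 CPM or more. Where a gene had several promoter entries, a match in any of them counted.

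The 40 genes, role groups, related lists and markers were chosen with earlier results of these data known. Values of every library are given for genes with an adjusted p under 0.05 among the 8 highest or 8 lowest log2 fold changes of the 40, for *Hspa5*, *Hsp90b1* and *Ero1l*, and for the largest change of each role group. From each related list at most 4 genes that averaged 10 CPM or more were named, those with the largest change that passed. The alternatives were pseudocounts of 0.1 and 3 CPM, no filter or one at 5 CPM, rescaling by median ratios, quantile normalization, no trend, no moderation, a replicate block, the ratio of mean CPM, removal of chromosome medians and leaving out each library. Protein sequences were not used here.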

Additional observations from a re-analysis of the deposited data

How the results depend on the processing

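Of the 33 genes of the 40 that passed the test, 26 kept their call and direction under all 16 alternatives with a test, *Hspa5*, *Hsp90b1*, *Pdia3* and *Ero1l* among them. Leaving out each library in turn gave 26 to 28 lower and 4 to 8 higher of the 40, with 4 higher without *Atgl* ECKO replicate 1 or 2 and 8 higher without *Atgl* ECKO replicate 3. For the related lists it gave 69 to 73 lower and 30 to 33 higher. Of all tested genes, these fits called 33.0% to 35.8% lower and 31.6% to 34.0% higher.

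The removal of chromosome medians changed most. It left 1 gene higher where 6 had been, and 34 lower. It reversed the sign of *Hspa13* (-0.20), *Sil1* (0.0241), *Dnajb11* (-0.18), *Dnajc3* (-0.30), *Pdia6* (-0.35), *Txndc11* (-0.18), *Fkbp2* (-0.17), *Sec61g* (0.0129) and *Sec63* (-0.13). The call of *Ssr3* was also lost there (-0.04, adjusted p = 0.222 from limma). The cause of the differences between chromosomes was not tested. *Calr* ranged from -0.0236 to 0.0129 when 1 library was left out, above 0 without *Atgl* ECKO replicate 3, and passed in none of these fits. The call of *Dnajb9* was lost with no filter (adjusted p = 0.0539), with quantile normalization (0.0853), without the trend (0.0827) and without moderation (0.135), and that of *Fkbp14* without moderation (0.0788). Rescaling by median ratios and quantile normalization each gave 8 higher genes (20%), where 35.9% and 35.6% of all tested genes were higher. *Pnpla2* had a log2 ratio of mean CPM of -1.57, larger than its -1.48 because no pseudocount was added.

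The labels number the libraries of both genotypes from 1 to 3. Deviations of same-numbered libraries from their group means correlated at -0.15 to 0.09 over the 3 pairs, and those of other pairs at -0.30 to 0.23. With 3 libraries per genotype, these correlations cannot tell whether same-numbered libraries share a culture or preparation. With the replicate number as a replicate block, 6 genes were higher and 27 lower, and in the related lists 32 and 71. Over all tested genes it was 34.02% and 35.85%. The log2 fold change of *Pnpla2* with the block was -1.48. Depth limits *Sec61g* and *Fkbp2* most, whose standard errors, 0.07 and 0.06, were the largest of the 40.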
